A study of Mus musculus with 4 samples.

Results

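Apolipoproteins are the proteins that hold lipids in solution in plasma and steer lipoproteins to their enzymes and receptors. The 10 genes described here, Apoa1, Apoa2, Apoa4, Apoa5, Apob, Apoc1, Apoc3, Apoc4, Apoe and Apoh, were taken by symbol from tables of liver RNA. All 10 were among the 12883 genes of the input table, and they accounted for 17 of the 7569 transcripts of the immunoprecipitate table. The study used miCLIP, in which an antibody against methylated adenosine is crosslinked to RNA and the bound fragments are cloned by the iCLIP procedure. Its 4 groups were the Fto knockout immunoprecipitate, the Fto knockout input, the wild-type immunoprecipitate and the wild-type input, all from liver biopsies of mice on a C57/Bl6 background with 3 replicates stated for each. The labels do not say how Fto was deleted, what age or sex the mice had, or whether each replicate was a separate animal. The p-values therefore reflect the spread among these libraries, which could be technical.

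The liver is the main source of plasma apolipoproteins. Apob is the scaffold of very low density lipoprotein and stays with its particle for life, whereas the A, C and E proteins exchange between particles. Apoa1 and Apoa2 carry high density lipoprotein, Apoe is a ligand of the low density lipoprotein receptor, Apoa5 and Apoc3 act in opposite directions on lipolysis of triglyceride-rich particles, and Apoh, despite its name, is mainly a phospholipid-binding plasma protein. Fto encodes a demethylase of methylated adenosine in RNA. One of its substrates, N6,2'-O-dimethyladenosine (m6Am), arises where the base next to the cap is an adenosine, and the antibody binds m6Am as well as N6-methyladenosine (m6A).

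Because m6Am depends on the base at which transcription starts, the bases around the annotated start are shown for the 8 apolipoprotein genes held in the RefSeq start table (build GRCm38.p6). Each line runs 5′ to 3′ on the coding strand, and the capital marks the base annotated as the start of the transcript. For Apoa2, Apoe and Apoa5, which have more than 1 annotated start, the start listed first in the table is shown.
Apob, chr12:7977662-7977691, plus strand: ctgcagtggatcaagTacctgcctgagctc
Apoa1, chr9:46228615-46228644, plus strand: aaagtaagcagtggcAgggccaggctgagc
Apoa2, chr1:171225039-171225068, plus strand: tgggggtgggggagtAtatgtgtatatagc
Apoa4, chr9:46240829-46240858, plus strand: tcctgaagtttctggCtatccttcccagcc
Apoa5, chr9:46268593-46268622, plus strand: ctgctctctgtgcccAgaaccgagcaggtg
Apoc4, chr7:19681446-19681475, minus strand: gggagggctctttccAgtgctgcctgtccc
Apoe, chr7:19699174-19699203, minus strand: tccaaactccacctcTttcctctgccctgc
Apoh, chr11:108395282-108395311, plus strand: atttgtgtgcctctcTtcagcagaagacac

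An A stood at the start in 4 of these 8 windows, those of Apoa1, Apoa2, Apoa5 and Apoc4. Across all 32851 annotated starts 34.4% had an A there. The letters CA, with the A as the start base, on the coding strand alone since the start has a strand, were found in 3 of the 8 (Apoa1, Apoa5 and Apoc4), against 19.2% of all starts. None of the 4 further starts of Apoa2, Apoe and Apoa5 had an A. These letters describe an annotation, not the start used in these livers or a methylated base.

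In both deposited tables single replicate values were not analysed here, so each apolipoprotein has the authors' mean over both genotypes, a fold change and its standard error (SE). Means are normalized counts not divided by length. The headers leave the direction of the fold changes unstated. Input values are taken as knockout over wild type since Fto itself was low there, with a value of −1.49 on the log2 scale (SE 0.27, adjusted p = 3.52e-04) per the authors' deposited table. Fto was not among the immunoprecipitate transcripts analysed here. The same reading of the immunoprecipitate rests on a weak correlation of its fold changes with those of the input (Spearman 0.168 across 783 genes that share 1 set of livers), and read the other way every sign there turns. Liver identity was clear from the input, where 13 of 14 hepatocyte markers were present with means between 294 and 84262, while 4 of 6 intestinal epithelium markers were not among the genes analysed and the other pair, Fabp2 and Slc5a1, had means of 87.2 and 3.72 in the authors' deposited table. The intestine is the other main site of Apob, Apoa1 and Apoa4 expression.

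The comparison of immunoprecipitates was read for RNAs that the antibody bound more or less in knockout liver. Its deposited p did not follow from the fold over its SE, and which term it tests is unknown. A call, or its absence, therefore need not be a test of the fold printed beside it. No apolipoprotein transcript was called: at an authors' adjusted p under 0.05, 0 of the 12 with an adjusted p passed, where 4.69% of the 2347 transcripts with one passed, and 0 had an unadjusted p under 0.05, where 10.4% of the 6846 transcripts with a p did. The abundant transcripts lay close together and close to 0. All 9 with a mean of at least 90 stood between −0.90 and 0.89 on the log2 scale, with a median of −0.59, and the same median came out at −0.59 over the 198 transcripts of the authors' deposited table with means from 90 to 2000. The scarce ones, with means below 35, spread from −11.25 to 5.79, and 7 of these 8 were above 0. Of all transcripts, 28.03% stood above 0 at means below 10 and 35.77% at means from 10 to 35. Whether the scarce apolipoprotein transcripts differ from these shares was not tested.

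**Figure D1:**
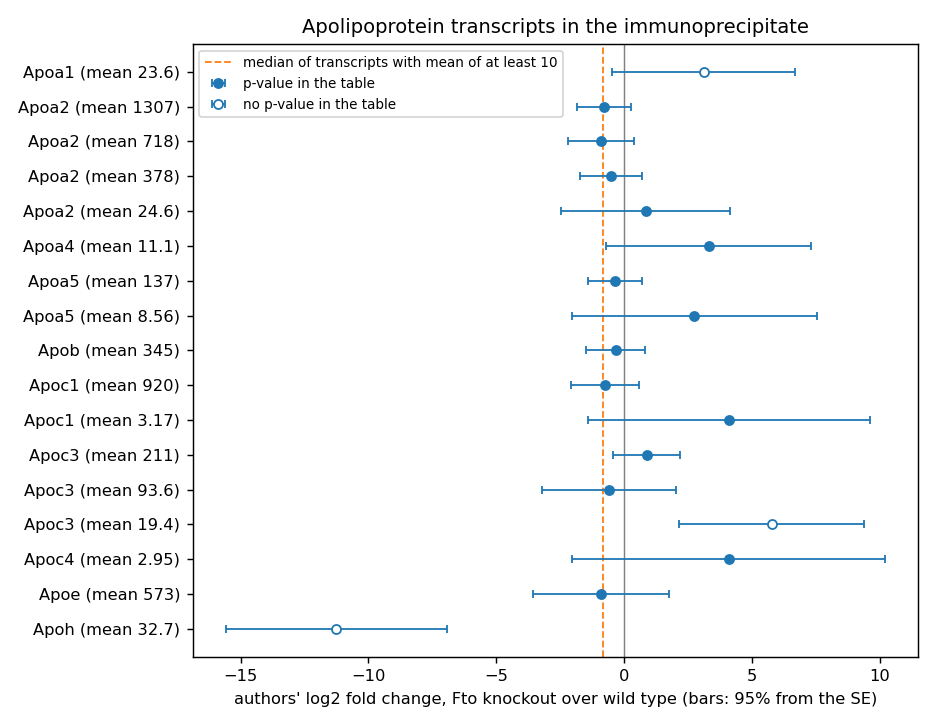
The authors' log2 fold change, Fto knockout over wild type, of each of the 17 apolipoprotein transcripts in the immunoprecipitate, with bars of 95% from the SE, open circles where the table has no p-value, and a dashed line at −0.82, the median of transcripts with a mean of at least 10. Bars cross 0 for 15 transcripts, and the other two, of Apoh and Apoc3, have no p-value.

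Among the structural proteins, Apob had 1 transcript with a mean of 345 and stood at −0.33 (SE 0.59, adjusted p = 0.986) per the authors' deposited table. Apoa2, the second protein of high density lipoprotein, was the apolipoprotein most abundant in the immunoprecipitate. Its transcripts had means of 1307, 718, 378 and 24.6, and log2 fold changes of −0.79 (SE 0.54), −0.90 (SE 0.66), −0.51 (SE 0.62) and 0.86 (SE 1.69) in the same order, in the authors' deposited table. The lowest adjusted p of any apolipoprotein transcript was that of the first of these, at 0.571 in the authors' deposited table. These transcripts share exons and are not independent. Apoa1, the main protein of high density lipoprotein and the activator of cholesterol esterification by Lcat, had a mean of only 23.6 and stood at 3.12 (SE 1.82), with no p-value in the authors' deposited table.

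Of the exchangeable proteins, Apoe had a mean of 573 and stood at −0.90 (SE 1.36, adjusted p = 0.911) per the authors' deposited table. Its SE exceeded the median of 0.840 for the transcripts with means from 90 to 2000. Apoc1, a small protein that slows receptor uptake of remnants, had nearly all of its signal in 1 transcript (99.7% of the gene's sum), which had a mean of 920 and stood at −0.74 (SE 0.69, adjusted p = 0.761) per the authors' deposited table. Apoa5, which promotes lipolysis by lipoprotein lipase, stood at −0.35 (SE 0.55, adjusted p = 0.933) for its transcript of mean 137 in the authors' deposited table.

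Apoc3, the inhibitor of lipolysis, had transcripts on both sides of 0. Its most abundant one, with a mean of 211, stood at 0.89 (SE 0.67, adjusted p = 0.851), and the next, with a mean of 93.6, at −0.59 (SE 1.34, adjusted p = 0.938) per the authors' deposited table. The scarcest (ENSMUST00000118649), with a mean of 19.4, stood at 5.79 (SE 1.85) with no p-value in the authors' deposited table. It held 5.98% of the summed signal of the gene. Apoa4, which the liver makes together with the intestine in mice, stood at 3.31 (SE 2.05, adjusted p = 0.914) at a mean of 11.1 in the authors' deposited table. Apoc4, a minor protein of very low density lipoprotein, had a mean of 2.95 and a log2 fold change of 4.09 (SE 3.13, unadjusted p = 1) per the authors' deposited table. The minor transcripts of Apoc1 and Apoa5, with means of 3.17 and 8.56, likewise stood above 0, at 4.10 (SE 2.81) and 2.74 (SE 2.45) per the authors' deposited table.

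Apoh was the apolipoprotein farthest from 0. Its transcript (ENSMUST00000000049) had a mean of 32.7 and a log2 fold change of −11.25 (SE 2.21, 95% interval −15.59 to −6.92), with no p-value and no adjusted p per the authors' deposited table. At such a mean a fold of this size leaves almost no signal in 1 genotype, so its size is not a measured ratio. Of the 1191 transcripts with means from 10 to 35, 28, that of Apoh included, stood at or below −11.25 in the authors' deposited table. Calling transcripts from the fold over its SE, in place of the authors' p, called Apoh lower (adjusted p = 2.36e-05) and the scarce Apoc3 transcript higher (adjusted p = 0.0231), both with normal p-values and Benjamini-Hochberg adjustment, where 10.8% of all 7569 transcripts were called, 8.01% lower and 2.81% higher. Both transcripts are scarce ones that reach their mean mostly through 1 genotype, so nothing is read from these calls. They are the members without a deposited p-value together with Apoa1. Such transcripts made up 3 of the 17 here and 9.55% of the table, and no source used here gives the reason.

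**Figure D2:**
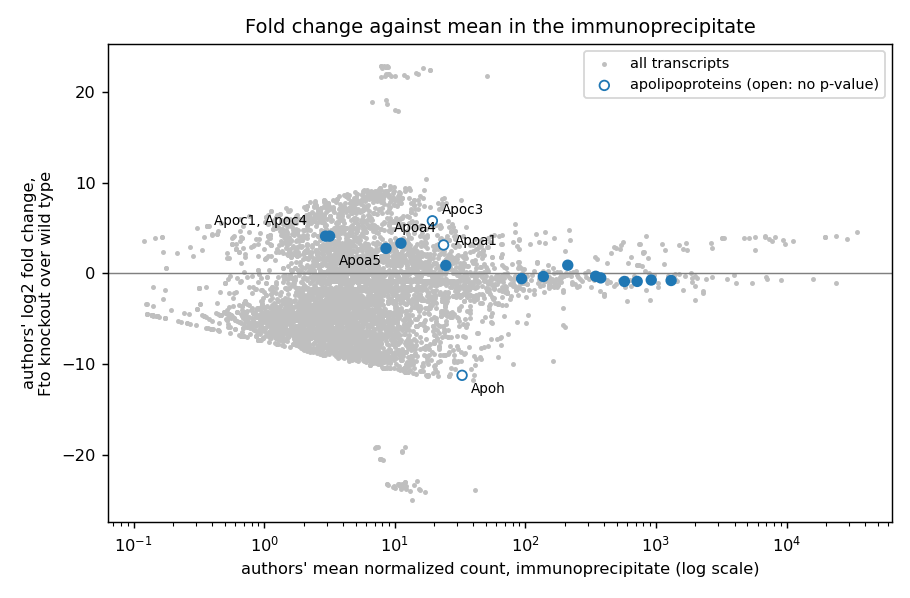
The authors' log2 fold change (Fto knockout over wild type) against their mean normalized count on a log axis for all 7569 immunoprecipitate transcripts in grey and the 17 apolipoprotein transcripts in blue, open where no p-value is given. Apolipoprotein transcripts with means of at least 90 lie within −0.90 to 0.89, and Apoh at −11.25 lies near the lower edge of the grey cloud.

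The direction of the abundant transcripts depends on the centring. Transcripts with means of 10 or more had a median of −0.82. Scarce transcripts of several different genes, such as Dgat2, Cd36, Pon1 and Pltp, repeat this value at −0.819, so it may not measure a scaling. Relative to the median, the most abundant transcripts of Apoa2, Apoc1, Apoa5 and Apob turned to 0.02, 0.08, 0.47 and 0.49. That of Apoe stayed below 0 at −0.09. Above 0 were 8 of the 17 apolipoprotein transcripts (47.1%), against 29.5% of all transcripts, at medians of −0.33 and −1.59.

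The comparison of inputs asked which RNA levels differed between the genotypes. No apolipoprotein passed: at an authors' adjusted p under 0.05 there were 0 of 9 with an adjusted p, where 0.0389% of 12865 genes passed, and 0 had an unadjusted p under 0.05, where 2.21% of genes did. Fold changes were small, and 8 of the 10 lay below 0. Their median was −0.19, against 0.02 for all 12883 genes, of which 53.5% lay above 0, in the authors' deposited table. No 95% interval reached farther from 0 than 0.81 on this log2 scale, in which the authors' estimates have the small sizes of shrunken values, so unshrunken differences could be larger.

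Apoe had the lowest p of the apolipoproteins. In the authors' deposited table its mean was 19543 and its log2 fold change −0.37 (SE 0.21, 95% interval −0.78 to 0.05), which is 0.776 times the wild-type level, with an unadjusted p of 0.0837 and an adjusted p of 0.9998. Apoc1, its neighbour on chromosome 7, stood at −0.33 (SE 0.24, unadjusted p = 0.161) with a mean of 3028 in the authors' deposited table. Both intervals include 0. Macrophages, Kupffer cells among them, are also known to make Apoe, and 12 of 18 of their markers lay above 0 (median 0.33, 0 called) while Apoe lay below. The highest was H2-Ab1 at 0.96, and Marco and Timd4 stood at 0.49 and 0.43. The 6 below 0 included Clec4f at −0.16 and Cd5l at −0.04. The markers' summed mean was 1456, and their part in the value of Apoe was not tested. In bulk liver, fewer cells of a type and less RNA per cell cannot be told apart.

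Apob, the gene with the highest mean of the 10 at 20818, stood at −0.23 (SE 0.21, unadjusted p = 0.269) per the authors' deposited table. Counted by gene and not per length, it came after a mitochondrial ribosomal RNA (414332), Alb (84262) and the other mitochondrial ribosomal RNA (36305), and just before Apoe and Scd1 (16874) per the authors' deposited table. Apoa5 at −0.24 (SE 0.23), Apoc3 at −0.21 (SE 0.21) and Apoa1 at −0.16 (SE 0.25) had similar fold changes in the authors' deposited table. The opposed regulators of lipolysis, Apoa5 and Apoc3, thus differed by less than their errors. Apoc4 at −0.08 (SE 0.21) and Apoa2 at −0.06 (SE 0.23) were nearest to 0 in the authors' deposited table.

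Only Apoa4 and Apoh lay above 0 in the input. Apoa4 stood at 0.34 (SE 0.24, 95% interval −0.14 to 0.81) with a mean of 1404 and no p-value in the authors' deposited table. A missing p-value was rare there, at 18 of 12883 genes. Apoh stood at 0.18 (SE 0.21, unadjusted p = 0.399) with a mean of 3080 in the authors' deposited table, so its input level gave no call in either direction beside its value of −11.25 in the immunoprecipitate.

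**Figure D3:**
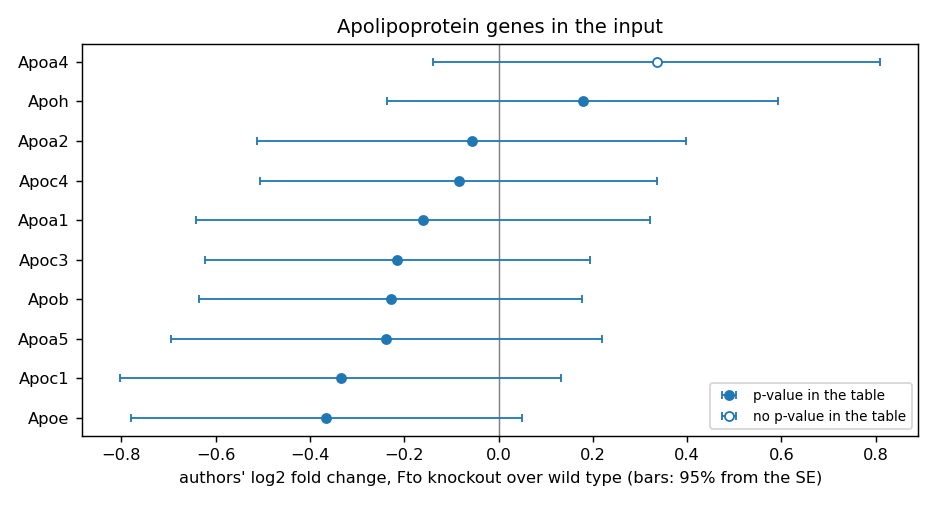
The authors' log2 fold change, Fto knockout over wild type, of the 10 apolipoprotein genes in the input, with bars of 95% from the SE and an open circle for Apoa4, which has no p-value. Every bar crosses 0, and the points run from −0.37 for Apoe to 0.34 for Apoa4.

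The difference between the tables was then taken per gene, to ask whether bound RNA changed apart from the RNA level. Each gene was represented by its most abundant transcript, with 10 as the lowest mean allowed in either table, which leaves out Apoc4. Of the 9 apolipoproteins 1 passed, where 26.3% of 783 genes did (20.4% lower and 5.87% higher). That 1 was Apoh, at an immunoprecipitate minus input difference of −11.43, and 16 genes, Apoh included, stood at or below that value. With almost no signal in 1 genotype, Apoh reached the lowest mean allowed only through the other, so this pass is no support for a difference and the value no measured size. The test also treats the errors of the tables as unrelated. With SE derived from the authors' p Apoh gives no value, and 0 of the 7 apolipoproteins left passed. Which term that p tests is unknown, so this setting cannot check the differences.

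The other apolipoproteins did not pass, but most intervals were wide. For the abundant Apob and Apoa5 the differences were −0.10 (95% interval −1.32 to 1.12) and −0.11 (95% interval −1.28 to 1.05). Apoa2 stood at −0.74 (95% interval −1.89 to 0.41) and Apoc1 at −0.41 (95% interval −1.83 to 1.02). Each of these 4 intervals includes 0, and a difference of any size inside its interval remains compatible with the data. For Apoe, Apoa1 and Apoa4 the intervals were wider, at −3.23 to 2.16, −0.33 to 6.89 and −1.07 to 7.02. Apoc3 stood at 1.11 (95% interval −0.27 to 2.48) and passed only after each table was centred on its median, at 1.94 (Benjamini-Hochberg adjusted p = 0.0264 from the normal test across all genes), a setting in which 24.3% of the 783 genes passed.

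How strongly each apolipoprotein RNA was recovered by the antibody, as a mean over both genotypes, differed widely between the genes. The measure was the ratio of the immunoprecipitate mean (most abundant transcript) to the input mean of the same gene. How far the length of the gene enters this ratio was not tested. The tables were normalized separately, so ratios are compared only between genes, and the ratios have no error because single replicates were not analysed here. In the authors' deposited tables Apoc1 had a mean of 920 in the immunoprecipitate and 3028 in the input, a ratio of 30.4%. Apoa2 had means of 1307 in the immunoprecipitate and 6830 in the input there, a ratio of 19.1%. Apoc3 (11.8%) and Apoa5 (9.17%) came next. The top of this order depends on using 1 transcript per gene. With the transcripts of a gene summed, Apoa2 came first, at a log2 ratio of −1.49, and Apoc1 second, at −1.71. By the most abundant transcript these log2 ratios were −2.39 and −1.72. Apoe, with an immunoprecipitate mean of 573 and an input mean of 19543, had a ratio of 2.93%. Apob, with an immunoprecipitate mean of 345 and an input mean of 20818, had a ratio of 1.66%.

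At the low end stood Apoh at 1.06%, Apoa4 at 0.793%, Apoc4 at 0.452% and Apoa1 at 0.318%. Apoa1 had a mean of 23.6 in the immunoprecipitate and 7423 in the input of the authors' deposited tables. The immunoprecipitate fold changes of these 4 genes were −11.25 for Apoh, 3.31 for Apoa4, 4.09 for Apoc4 and 3.12 for Apoa1 per the authors' deposited table. The 95% intervals of Apoa4, Apoc4 and Apoa1 include 0. The ratios of these 4 genes and their order may differ by genotype, which was not analysed here. Across the 715 protein-coding genes with means of 10 or more in both, the median log2 ratio was −2.96, against −5.09 for the 9 apolipoproteins among them, which ran from percentile 1.26 for Apoa1 to percentile 71.2 for Apoc1, and 5 of the 9 lay below the lower quartile of −4.27. In that set genes of high input mean had low ratios (Spearman −0.829 across genes, where the input mean enters both measures), and the 9 apolipoproteins had input means between 1404 and 20818. Against the 289 protein-coding genes with an input mean of at least 500 that are in both tables, a comparison chosen after seeing the data, the apolipoproteins ran from percentile 7.96 for Apoa1 to percentile 96.9 for Apoc1. There the median log2 ratio of the 10 apolipoproteins was −5.50, against −5.91 for these genes, so the place of the apolipoproteins depends on which genes they are set beside. Another 73 of the 362 such genes were not among the immunoprecipitate transcripts analysed here.

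**Figure D4:**
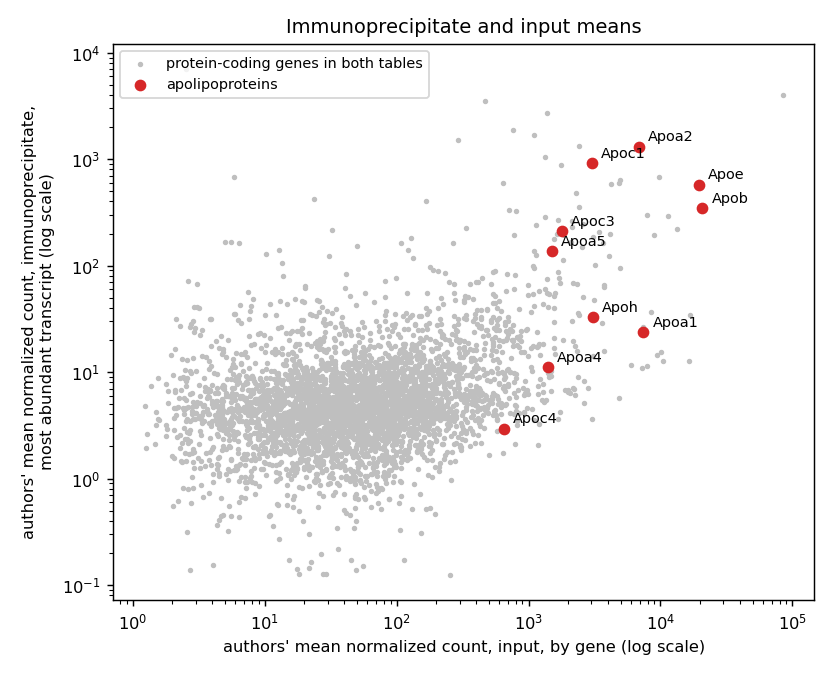
The authors' mean normalized count in the immunoprecipitate (most abundant transcript) against that in the input (by gene), both on log axes, for protein-coding genes in both tables in grey and the 10 apolipoproteins in red. Apoa1 and Apoa2 have similar input means (7423 and 6830) and immunoprecipitate means of 23.6 and 1307.

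Set beside the start windows shown above, genes with an annotated A start were found at both ends of this order. Apoa1 and Apoc4, both with CA at the start, had the lowest ratios, at 0.318% and 0.452%, whereas Apoa5, also with CA, had 9.17% and Apoa2, with TA, 19.1%. Apob, Apoe and Apoh, each with a T at the annotated start, lay between 1.06% and 2.93%, and Apoa4, with a C, had 0.793%. Apoc1 and Apoc3 were not in the start table. With 8 genes this is a description and no test was made.

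Genes that build, edit, remodel and take up lipoproteins were set beside the apolipoproteins in lists chosen with earlier results of these data known. In the immunoprecipitate, 89 of 2347 transcripts (3.79%) were called lower and 0.895% higher, and of the 68 transcripts in these lists only 30 had an adjusted p, with 4 called lower and 0 higher. Among other apolipoproteins and associated proteins, 1 of the 4 transcripts with an adjusted p (of 14) was called lower, that of Saa4, a constitutive serum amyloid A, at −10.56 (SE 1.57, adjusted p = 7.75e-05, mean 38.3) per the authors' deposited table. For remodelling in plasma 1 of the 6 with an adjusted p (of 10) was called lower, that of the phospholipid transfer protein Pltp at −10.02 (SE 1.59, adjusted p = 0.00720, mean 17.8) per the authors' deposited table. The other Pltp transcripts, with means of 11.3 and 7.45, stood at −0.82 and were not called. Among transcription regulators 2 of the 11 with an adjusted p (of 21) were called lower, Ppara, the fatty acid receptor, at −10.47 (adjusted p = 2.66e-04, mean 27.1) and Mlxipl, a carbohydrate-responsive factor, at −7.60 (adjusted p = 0.0266, mean 10.4) per the authors' deposited table. The other Ppara transcripts, at −6.11 and −4.97, were not called. All 4 called transcripts have means between 10.4 and 38.3, the range in which Apoh lies. As for Apoh, folds of this size at such means leave almost no signal in 1 genotype. Their sizes are therefore not measured ratios, and nothing is read from these calls. Assembly and secretion (10 transcripts, 4 with an adjusted p, median −0.82), Apob editing (4 transcripts, 1 with an adjusted p, median −2.25) and receptors (9 transcripts, 4 with an adjusted p, median −0.82) had 0 calls, beside a median of −1.59 for all transcripts. The medians of −0.82 fall on the value that recurs among scarce transcripts.

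In the input, 0 genes of these lists were called, where 0.0389% of 12865 genes were. Across all genes of the input 53.5% lay above 0, and 2.21% of those with a p had an unadjusted p under 0.05. Transcription regulators of apolipoprotein genes had 21 of 29 members below 0 and a median of −0.11, with 3 at an unadjusted p under 0.05. These were Cebpa, a factor of hepatocyte genes, at −0.52 (SE 0.21), Ppara at −0.51 (SE 0.24) and Creb3l3, which activates apolipoprotein genes in liver, at −0.47 (SE 0.22) per the authors' deposited table, each with an adjusted p of 0.9998. For remodelling in plasma, 7 of 12 genes lay above 0 (median 0.14). Angptl4, an inhibitor of lipoprotein lipase, stood at −0.72 (SE 0.29, adjusted p = 0.9998) and Lpl, the lipase itself, at 0.60 (SE 0.28, adjusted p = 0.9998) per the authors' deposited table.

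The machinery that loads lipid onto Apob was near 0 in the input. Assembly and secretion genes had a median of −0.01 over 19 rows for 18 genes, 9 rows above 0, and Plin2, a lipid droplet coat protein, stood at −0.48 (SE 0.25, unadjusted p = 0.0557) per the authors' deposited table. The 5 editing genes had a median of 0.03. Among them Apobec1, the deaminase that edits Apob mRNA, stood at −0.13 (SE 0.28) and its cofactor Rbm47 at −0.40 (SE 0.24, unadjusted p = 0.0968) per the authors' deposited table. The 13 receptor and uptake genes had a median of −0.05, with Stab1, a scavenger receptor of endothelial cells and macrophages, at −0.50 (SE 0.23, unadjusted p = 0.0277) per the authors' deposited table. Other apolipoproteins and associated proteins had a median of 0.18, with 8 of 13 above 0, and Apom, a carrier of sphingosine-1-phosphate on high density lipoprotein, stood at 0.49 (SE 0.25, unadjusted p = 0.0552) per the authors' deposited table. Hepatocyte markers had a median of 0.13 with 8 of 13 above 0, so the apolipoproteins and the hepatocyte markers had medians of opposite sign. That difference was not tested. Erythroid markers lay below 0 in 5 of 5 genes, with a median of −0.48, a summed mean of 506 and 0 called, though 2 of the 5 have no p-value. Alas2, the heme synthesis enzyme of red cells, stood at −0.99 (SE 0.29, unadjusted p = 4.92e-04, adjusted p = 0.443) per the authors' deposited table. The part of blood in the apolipoprotein values was not tested.

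**Figure D5:**
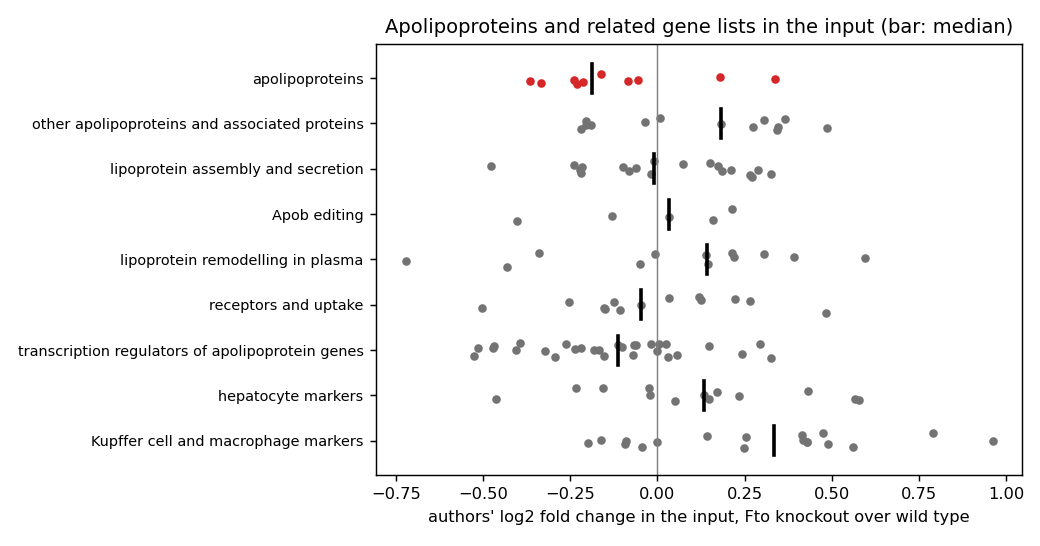
The authors' log2 fold change in the input, Fto knockout over wild type, with 1 point per gene and a bar at the median, for the 10 apolipoproteins in red and related lists in grey. The apolipoprotein median is −0.19, that of hepatocyte markers 0.13 and that of Kupffer cell and macrophage markers 0.33.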

How the data were processed

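Liver RNA of Fto knockout and wild-type mice was measured as a methyladenosine immunoprecipitate and as input. The submitters' processing notes name STAR, bedtools 2.25.0, DESeq2 and the build mm10 without saying what each did. Counting rules, strand, filters and model formula: not given in the sources used here. Per the file headers, the authors deposited a mean normalized count (a signal averaged over libraries), a log2 fold change with its standard error, a test statistic (a score), a p-value and an adjusted p-value, by transcript for the immunoprecipitate and by gene for the input. Depth per library is unknown. The input statistic was the log2 fold change over its SE. In the immunoprecipitate the p-value was the chi-square tail of the statistic with 1 degree of freedom, and the statistic differed from the square of fold over SE (Spearman 0.827 between them), so which term the p tests is unknown.

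Features were called at the authors' adjusted p under 0.05. Differences between tables used the 2 fold changes and SE, a normal p and Benjamini-Hochberg adjustment over all genes, in Python 3.11.15 with SciPy 1.17.1. The step was tested on simulated data with normal errors unrelated between the tables, which is what the test itself assumes. That simulation therefore cannot show how the step behaves on transcripts with almost no signal in 1 genotype. Intervals are 95% normal intervals from the SE. Positions and start sequences are from RefSeq on GRCm38.p6, matched by symbol for 8 of 10 genes. Named genes were all members, Fto, and up to 4 genes of each list by lowest p. The members and lists were chosen with earlier results of these data known. Alternatives were the adjustment, centring, minimum means, the SE, features per gene and the direction.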

Additional observations from a re-analysis of the deposited data

Results flagged for a closer look

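Apoh had different fold changes in the immunoprecipitate and the input. It stood at −11.25 in the immunoprecipitate and 0.18 in the input, in the authors' deposited table, a difference of −11.43, which passed the normal test across genes as 26.3% of 783 genes did. Apoh has no p-value in the immunoprecipitate, where its mean was 32.7 against 3080 in the input. With almost no signal in 1 genotype it reached the minimum mean of 10 only through the other, so the pass gives no support and −11.43 is no measured size. At a minimum mean of 50 in both tables it was not compared.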

How the results depend on the processing

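No paired analysis was possible because the tables hold no replicate values; for the same reason no replicate was left out. In the input 0 apolipoproteins were called under each of the 3 alternatives. In the immunoprecipitate 2 were called (Apoh and an Apoc3 transcript) with the fold over its SE and again 2 after centring, against 0 by the authors' p; over the deposited p-values, at a mean of at least 10 and with 1 transcript per gene there were 0. Centring turned the transcripts of Apoa2 to 0.31 and 0.0242, of Apoa5 to 0.47, of Apob to 0.49, of Apoc1 to 0.0754 and of Apoc3 to 0.23. The difference between the tables passed for 1 apolipoprotein, against 2 after centring, 0 at a mean of at least 50 and 0 with SE from the authors' p; Apoh has no value in either of these last settings, which shows why it was lost. Centring turned the differences of Apoa2 (0.10), Apoa5 (0.72), Apob (0.74), Apoc1 (0.43) and Apoe (0.30), and weighting over transcripts that of Apoa5 (0.0323). With the immunoprecipitate direction turned the differences were −2.96 for Apoa1, 0.85 for Apoa2, −3.65 for Apoa4, 0.59 for Apoa5, 0.56 for Apob, 1.08 for Apoc1, −0.68 for Apoc3, 1.27 for Apoe and 11.07 for Apoh, by construction. The median log2 ratio of immunoprecipitate to input was −5.09 (all genes −2.96) at means of at least 10 in both tables. It was −5.50 (all genes −5.91) at an input mean of at least 500. With transcripts summed the apolipoprotein medians were the same, while those of all genes moved to −2.61 and −5.60. The order of the apolipoproteins did change there, with Apoa2 in place of Apoc1 at the top. The calls passing between the tables numbered 206 of 783 genes, 190 of 783 after centring, 7 of 128 at a mean of at least 50, 46 of 717 with SE from the authors' p and 432 of 3944 with no minimum. Depth is unknown, and the SE of apolipoprotein transcripts, from 0.54 to 3.13, limits what could be detected.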

Other observations

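Members that sit side by side in the genome did not share 1 value. Apoa1, Apoc3, Apoa4 and Apoa5 lie within 43292 bases of chromosome 9 (46228630 to 46271921, GRCm38.p6). Their immunoprecipitate to input ratios were 0.318%, 11.8%, 0.793% and 9.17% in that order along the chromosome, so low and high values alternate. On chromosome 7 Apoc4, Apoc1 and Apoe had ratios of 0.452%, 30.4% and 2.93%. Apoc2, the activator of lipoprotein lipase, lies 142 bases from Apoc4 and stood at −1.87 (SE 2.93) in the immunoprecipitate and 0.01 (SE 0.26) in the input, in the authors' deposited table. Neither value of Apoc2 passed.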
